A study of Mus musculus with 4 samples.

Results

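The zinc finger protein genes described here are the 260 genes of the peak lists whose name is Zfp followed by a digit, out of 8889 genes with a peak in either list. The rule reads the name alone and uses no measured value; it leaves out zinc finger genes with other names, such as the Zbtb, Klf and Zc3h genes. Livers were studied by RIP-seq (immunoprecipitation of RNA, then sequencing). They came from male C57BL/6 mice that had received an adeno-associated virus (AAV), a gene delivery vector, carrying NAT10 or, as the control, GFP. The NAT10 enzyme acetylates cytidines in RNA to N4-acetylcytidine (ac4C). The AAV-NAT10 group and the AAV-GFP group each have 1 immunoprecipitated (IP) and 1 input library, and each pair gave 1 peak list. There is no replicate, so no test between the viruses was possible, no p-value is given and no difference below has a replicate check.

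The labels leave several points unsettled. The age of the mice, the number of animals behind a library and the promoter of the vector are unknown from the sources used. The protocol speaks of an antibody to an unnamed protein, or IgG, and the library type names ac4C instead, so the molecule that was pulled down is not settled. It also says that the RNA came from lean and db/db mice, although no sample title mentions either. Library depth is unknown. Of the hepatocyte genes looked up, Alb, Apoa1, Ttr, Cyp2e1 and Hnf4a had no peak in either list, and Apob and Cps1 had one in AAV-NAT10 alone. A peak reports enrichment of IP over input and not abundance, so this neither checks nor contradicts the liver label.

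Most Zfp genes encode C2H2 zinc finger proteins, in which a string of small zinc-holding folds reads a DNA sequence. Many also carry a KRAB box, which recruits the corepressor KAP1 (Trim28) and with it histone methylation, and such KRAB zinc finger proteins silence transposable elements and imprinted genes. Their genes multiplied by tandem duplication and often lie in clusters, and all fingers of such a protein are usually encoded in 1 long last exon. A smaller group with the same name binds RNA instead, among them the CCCH proteins Zfp36, Zfp36l1 and Zfp36l2, which shorten the life of mRNAs with AU-rich elements in their 3′ untranslated region.

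The first 30 bases of a transcript could be read for the Zfp genes whose annotated start lay inside a peak, with RefSeq sequence of GRCm38.p6, the assembly of mm10. AAV-NAT10 peaks held the first 30 bases of 25 Zfp starts, AAV-GFP peaks those of 18 starts of 17 genes, and 12 starts were in peaks of both lists. They are shown for 8 of the Zfp genes described below and for Zfp180, and the capitals mark a run of 4 triplets that each start with C and go on with any 2 bases, a letter pattern that has been reported around some ac4C sites. Each label ends with the list whose peaks held the stretch.
Zfp148, chr16:33380775-33380804, plus strand, AAV-NAT10 only: ggCGACCGCGGCGAcgctctagccgcgcca
Zfp180, chr7:24081897-24081926, plus strand, AAV-NAT10 only: gataacCCCCTACTTCCGggtttagccggc
Zfp207, chr11:80383279-80383308, plus strand, AAV-NAT10 only: ggtggctgatgggaggtggagatagaacga
Zfp622, chr15:25984366-25984395, plus strand, AAV-NAT10 only: gcgagtcggaagttccctcacttagaactc
Zfp36, chr7:28379199-28379228, minus strand, both lists: cggtctcttcaccaaggccattcgcgccac
Zfp652, chr11:95749067-95749096, plus strand, both lists: agaacagccctttttgacttaaggtggcgg
Zfp740, chr15:102204571-102204600, plus strand, both lists: gtttctggaacagacctagagcttcaccaa
Zfp97, chr17:17121383-17121412, plus strand, both lists: aagaggagggtgtttcttccggaatccttt
Zfp809, chr9:22225703-22225732, plus strand, AAV-GFP only: ggggtggatttagaaagttcagaggaggtc
The pattern stood on the sense strand, which has the letters of the RNA, in 2 of the 25 starts in AAV-NAT10 peaks (8.0%). They were those of Zfp148 and Zfp180, and the pattern was in 0 of the 18 starts in AAV-GFP peaks. Over all genes it was in 15.9% of the 1276 starts inside AAV-NAT10 peaks, 14.5% of the 849 inside AAV-GFP peaks and 12.0% of all 32851 starts in the table, and in 11.6% of all 406 Zfp starts. On the other strand it was in 5 of the 25 (20.0%) and 3 of the 18 (16.7%) Zfp starts, against 26.1% and 24.6% of all starts inside the peaks of the same lists and 16.9% of all starts. A match is a run of letters and not a measured site, and no other part of the peaks was read.

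Of the 397 protein-coding RefSeq genes with such a name, 256 had a peak in at least 1 list (64.5%, exact 95% interval 59.6 to 69.2), against 37.6% of all 21900 protein-coding genes. Other zinc finger families lay on both sides of the Zfp share, with 92.7% of 41 Zbtb, 75% of 16 Zc3h, 70.6% of 17 Klf, 63.6% of 11 Zkscan and 50% of 16 Zscan genes. The other 4 names of the lists, Zfp125, Zfp191, Zfp259 and Zfp607, had no RefSeq entry of that name. RefSeq genes were matched to the lists by name alone. Peaks listed as Zfp191 and Zfp607 lie over Zfp24 and Zfp607a, which count here as without a peak. All RefSeq genes named from Zfp964 to Zfp996 had no peak either, and whether the lists hold them under older names was not tested. The shares of RefSeq genes, that of all genes included, can therefore be too low. The intervals of shares cover counting error only, and genes of a cluster with near-identical sequence are not independent draws. The AAV-NAT10 list held 558 peaks in 249 Zfp genes, of 41511 peaks in 8508 genes. The AAV-GFP list held 505 peaks in 234 Zfp genes, of 33968 peaks in 7462 genes.

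Most Zfp genes had a peak with either virus. A peak in both lists was found for 223 of the 260 (85.8%, 80.9 to 89.8), against 79.7% of all genes with a peak. A peak only in AAV-NAT10 was found for 26 (10.0%, 6.64 to 14.3), against 16.1% of all genes, and a peak only in AAV-GFP for 11 (4.23%, 2.13 to 7.44), against 4.29%. The AAV-NAT10 list was the longer one, and the balance turned when 16984 peaks of highest score were taken from each list. Then 271 AAV-NAT10 peaks and 308 AAV-GFP peaks lay in Zfp genes, and 13 Zfp genes were left with AAV-NAT10 peaks alone against 37 with AAV-GFP peaks alone, while over all genes these counts were 814 and 622.

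Among the 223 shared genes the covered length, which is the sum of a gene's peak lengths, was often nearly the same. It was greater in AAV-NAT10 in 115 genes (51.6%, 44.8 to 58.3, against 58.8% of all shared genes), greater in AAV-GFP in 60 (26.9%, against 27.0%) and equal in 48 (21.5%, 16.3 to 27.5, against 14.2%). The median difference, AAV-NAT10 minus AAV-GFP, was 10 bases (interquartile range -21 to 267), and over all 7081 shared genes it was 93 bases (-18 to 419). In 48 of the shared Zfp genes every peak had the same borders in both lists. Another 89 had the same number of peaks with some other borders, 56 had more peaks in AAV-NAT10 and 30 had more in AAV-GFP. This split was not counted over all shared genes, so it cannot be read as a trait of Zfp genes. Only Zfp809 had peaks in both lists that did not touch each other.

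**Figure D1:**
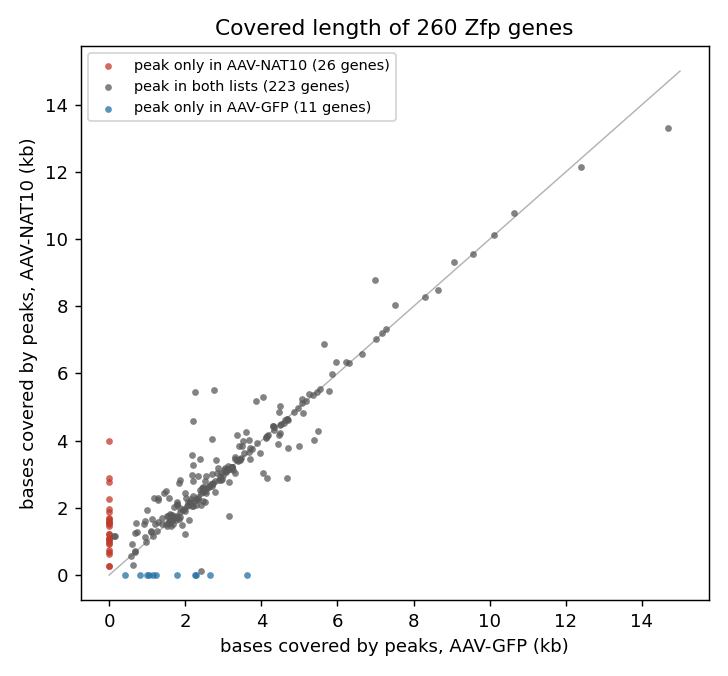
Bases covered by peaks in each of the 260 Zfp genes, AAV-NAT10 on the vertical axis and AAV-GFP on the horizontal axis, in kb, with a line of equality. Most of the 223 shared genes (grey) lie near the line, while the 26 genes of AAV-NAT10 alone (red) reach 3988 bases and the 11 of AAV-GFP alone (blue) reach 3624 bases.

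The Zfp peaks were long. A peak here is a piece as listed, and pieces were not set against exons. The median piece was 810 bases long in AAV-NAT10 (interquartile range 178 to 2120) and 886 bases in AAV-GFP (178 to 2239), against 179 and 184 bases over all peaks of the same lists. Pieces of at least 2000 bases made up 28.0% of the AAV-NAT10 Zfp peaks (156 peaks, 24.3 to 31.9), against 7.01% of all AAV-NAT10 peaks. In AAV-GFP they made up 30.1% (152 peaks, 26.1 to 34.3), against 8.11%. Pieces under 100 bases were 4.66% (26 peaks) of the Zfp peaks in AAV-NAT10 and 4.75% (24 peaks) in AAV-GFP, against 13.4% and 12.2% of all peaks. These length shares were thus much alike with both viruses.

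**Figure D2:**
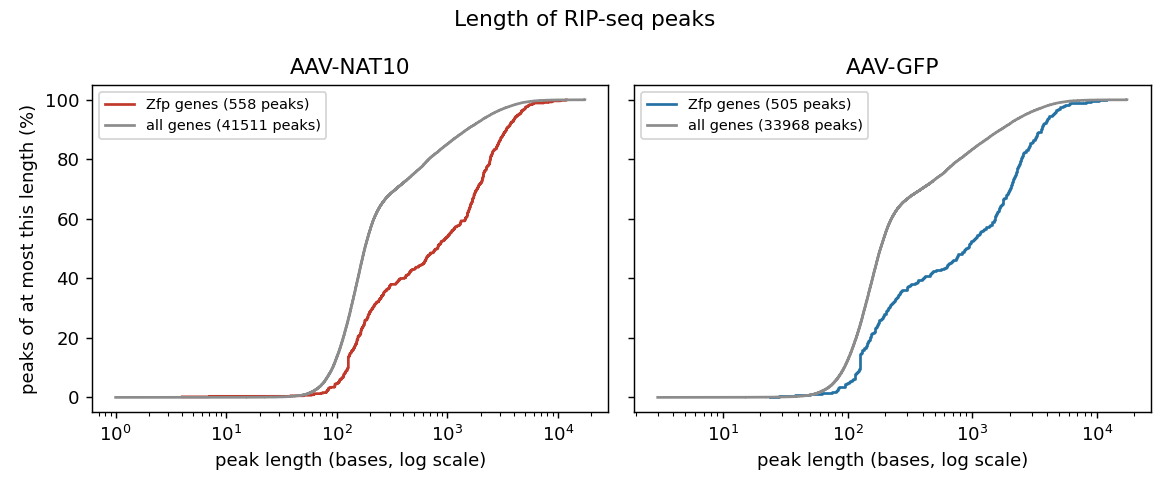
Cumulative share of peaks by length, with AAV-NAT10 on the left and AAV-GFP on the right; length in bases is on a log axis, Zfp peaks are coloured and all peaks grey. In both lists the Zfp curve runs to the right of the curve of all peaks, with medians of 810 and 886 bases.

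A typical Zfp gene was covered by few pieces. The mean number of peaks per gene was 2.24 in AAV-NAT10 and 2.16 in AAV-GFP, against 4.88 and 4.55 over all genes. Exactly 1 peak was found in 122 of the 249 AAV-NAT10 genes (49.0%, against 30.3% of all) and in 124 of the 234 AAV-GFP genes (53.0%, against 34.4%). A piece of at least 2000 bases was present in 148 Zfp genes in AAV-NAT10 (59.4%) and in 145 in AAV-GFP (62.0%), against 32.5% and 34.9% of all genes. Among Zfp genes with 2 or more peaks, the longest piece made up a median of 75.4% of the covered length in AAV-NAT10 and 74.5% in AAV-GFP, against 60.2% and 61.6% over all such genes. The longest Zfp pieces were in Zfp704, 11869 bases in AAV-NAT10 and 11889 bases in AAV-GFP. The median covered length per Zfp gene was 2710 bases in AAV-NAT10 and 2626 bases in AAV-GFP, against 2074 and 2119 bases over all genes.

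Zfp peaks lay toward the 3′ end of their genes. The strand was known for 440 AAV-NAT10 and 390 AAV-GFP Zfp peaks. Peak midpoints had their median at 75.5% of the gene's length from the 5′ end in AAV-NAT10 and at 76.8% in AAV-GFP, against 65.8% and 66.4% for all peaks. The stretch from 80 to 90% of the gene held 21.5% of the Zfp peaks in AAV-NAT10 and 22.5% in AAV-GFP, against 13.0% and 13.2% of all peaks. In the last stretch, from 90 to 100%, the shares were closer, 23.3% in AAV-NAT10 and 22.8% in AAV-GFP, against 20.6% and 21.3%. A peak ended within 10 bases of the RefSeq 3′ end of its gene in 79 AAV-NAT10 cases (18%, 14.5 to 21.9, against 9.36% of all peaks) and 70 AAV-GFP cases (17.9%, 14.3 to 22.1, against 10.0%).

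**Figure D3:**
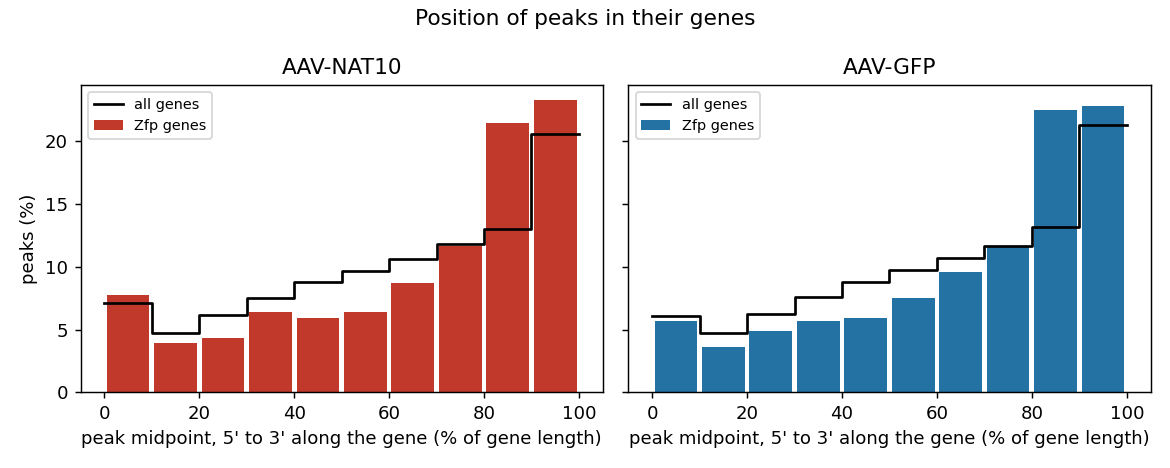
Share of peaks (%) by the place of their midpoint along the gene from the 5′ to the 3′ end (% of gene length), AAV-NAT10 left and AAV-GFP right; bars are Zfp peaks and the black line is all peaks. The bar from 80 to 90% stands above the line in both lists, at 21.5% and 22.5%.

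Fold enrichment, the linear IP ratio that each peak carries from the authors' caller, was middling in the family. The median Zfp fold was 6.04 in AAV-NAT10 (interquartile range 4.54 to 8.14, range 2.86 to 31.2), against 6.51 for all AAV-NAT10 peaks. It was 6.02 in AAV-GFP (4.78 to 8.10, range 2.73 to 27.7), against 6.33. The peak score is -10 times the log10 of the peak's p-value and stops at a ceiling near 3100, where peaks have no order. At the ceiling were 58 Zfp peaks in AAV-NAT10 (10.4%, against 6.96% of all) and 41 in AAV-GFP (8.12%, against 4.56%). They lay in 48 and 38 Zfp genes, 28 of which had such a peak in both lists. Both values are the authors' own for each peak and serve here to rank the peaks of a list, not as a measure of change between the viruses.

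Peaks without a counterpart in the other list had the lower folds, in Zfp genes as over all peaks. Of the AAV-NAT10 Zfp peaks, 443 (79.4%, 75.8 to 82.7) shared at least 1 base with an AAV-GFP peak, against 71.5% of all AAV-NAT10 peaks. Of the AAV-GFP Zfp peaks, 449 (88.9%, 85.8 to 91.5) shared a base with an AAV-NAT10 peak, against 87.4%. The median fold of the 115 unmatched AAV-NAT10 peaks was 4.53, against 6.55 in the matched, and 83 of them lay in genes with a peak in both lists. That of the 56 unmatched AAV-GFP peaks was 4.49, against 6.24 in the matched, and 42 of them lay in shared genes. Both borders were the same in 279 peak pairs, which were 50% of the AAV-NAT10 and 55.2% of the AAV-GFP Zfp peaks, against 60.2% and 73.6% of all peaks.

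The 3 CCCH genes of mRNA decay were covered identically with both viruses. Zfp36 (tristetraprolin) had 1 peak of 2470 bases at chr7:28376786-28379255, from 2 bases inside the low end of the RefSeq gene to past its start, with the same borders in both lists. Its fold was 9.72 in AAV-NAT10 and 9.22 in AAV-GFP, with the score at the ceiling in both. Zfp36l1 had 1 peak of 2789 bases at chr12:80107760-80110548, with a fold of 7.71 at the score ceiling in AAV-NAT10, and a fold of 5.46 at a score of 281.9 in AAV-GFP. Zfp36l2 had 1 peak of 3229 bases at chr17:84183928-84187156, with a fold of 10.8 in AAV-NAT10 and 8.28 in AAV-GFP, both at the ceiling. The covered length of these 3 genes thus differed by 0 bases in the full lists. With an FDR of at most 5 the AAV-GFP peaks of Zfp36 and Zfp36l2 dropped out (2470 and 3229 bases more in AAV-NAT10), and in the upper 0.5 of the lists by fold that of Zfp36l1 did (2789 bases).

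Of 9 genes with roles in RNA processing, translation or ubiquitin transfer, 7 had a peak in both lists, Zfp385a had one only in AAV-NAT10, and Zfp638 had none. Over all genes 37.6% had a peak and 79.7% of those had it in both lists, and the counts of this and the next lists stand beside these shares. Zfp598, the ubiquitin ligase that marks collided ribosomes, had 2 peaks over 1675 bases in AAV-NAT10 and 2 over 1126 bases in AAV-GFP. The 908-base piece at the 3′ end, chr17:24681109-24682016, was common, with a fold of 8.25 in AAV-NAT10 and 4.75 in AAV-GFP. A 767-base piece upstream of it, at chr17:24679509-24680275, was listed only in AAV-NAT10, at the score ceiling with a fold of 11.8. A 218-base piece nearer the start, at chr17:24669756-24669973, was listed only in AAV-GFP, with a fold of 4.20 at a score of 52.3.

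Zfp622, an assembly factor of the large ribosomal subunit, had 2 peaks over 1523 bases in AAV-NAT10 and 1 over 927 bases in AAV-GFP. The piece at its annotated start, whose first bases are shown above, was 818 bases long and was listed only in AAV-NAT10, with a fold of 6.62. Zfp207, a spindle and kinetochore protein, had 4 peaks in either list, covering 716 bases in AAV-NAT10 and 684 bases in AAV-GFP. Its folds ran from 4.90 to 10.4 in AAV-NAT10 and from 5.13 to 13.1 in AAV-GFP. The 32-base difference was at the start of the gene, where the first AAV-NAT10 peak began at the annotated start and the AAV-GFP peak began at 80383311. Zfp106, an RNA-binding protein of motor neurons and muscle, had 9 peaks over 6593 bases in AAV-NAT10 and 10 over 6653 bases in AAV-GFP. Zfp106 folds ran from 5.06 to 17.8 in AAV-NAT10 and from 4.30 to 15.9 in AAV-GFP.

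The other members of that list had the greater covered length in AAV-NAT10. Zfp326, which links transcription with splicing, had 3 peaks over 2025 bases in AAV-NAT10 and 2 over 1701 bases in AAV-GFP. Zfp346, a binder of double-stranded RNA, had 1 peak in each list, of 2526 bases with a fold of 6.99 in AAV-NAT10 and of 2382 bases with a fold of 6.08 in AAV-GFP. Zfp91, a ubiquitin ligase, had 4 peaks over 4427 bases in AAV-NAT10 and 3 over 4296 bases in AAV-GFP. Its 3611-base 3′ piece, chr19:12766939-12770549, had the same borders in both lists, with a fold of 4.97 in AAV-NAT10 and 3.91 in AAV-GFP. Zfp385a had 2 peaks over 1064 bases in AAV-NAT10, with folds of 4.92 and 3.81 and scores of 96.7 and 213.9, and no peak in AAV-GFP. The median difference over the 7 shared members was 144 bases, against 10 bases for all shared Zfp genes and 93 for all shared genes.

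**Figure D4:**
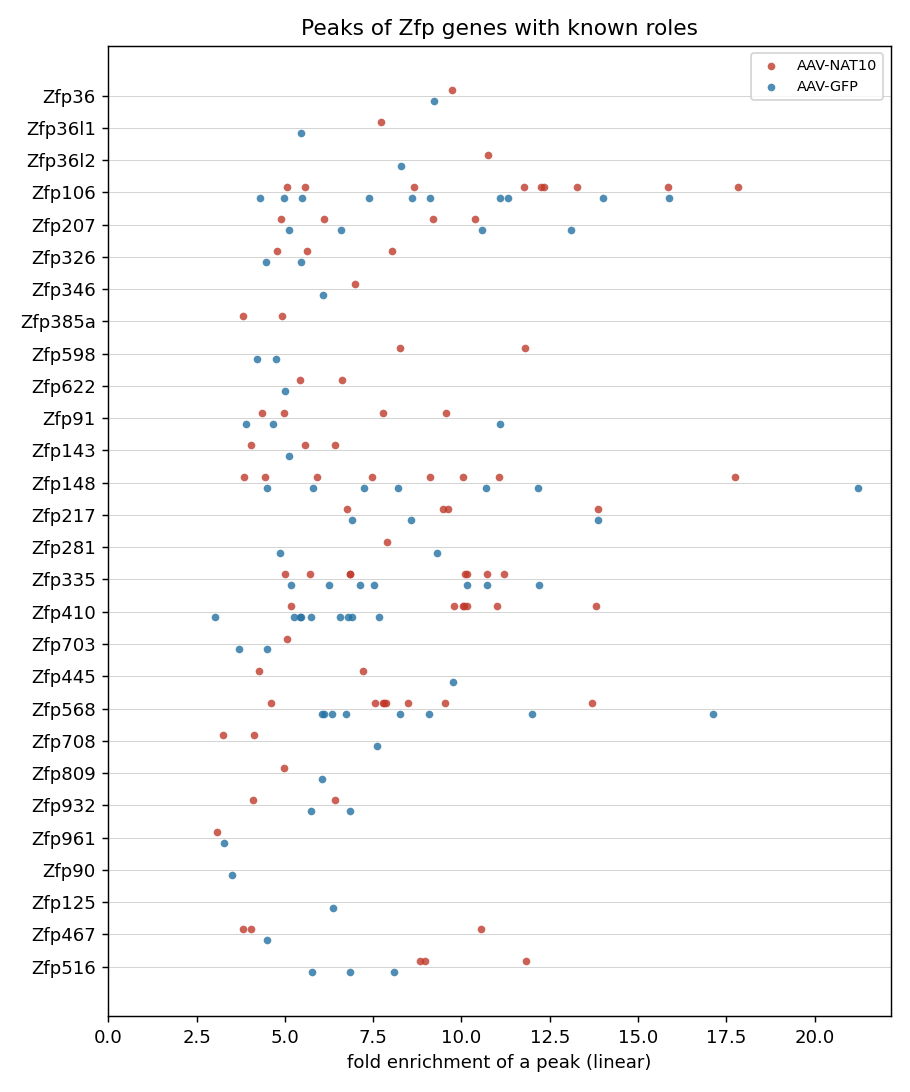
Fold enrichment (linear) of every peak of the Zfp genes with known roles, 1 gene per row; red points (upper) are AAV-NAT10 peaks and blue points (lower) are AAV-GFP peaks. Zfp106, Zfp148 and Zfp568 reach the highest folds, and Zfp410 reaches 13.8 in AAV-NAT10 and 7.66 in AAV-GFP.

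Of 10 DNA-binding factors without a KRAB box, 7 had a peak in both lists and 3 (Zfp423, Zfp462 and Zfp521) had none. Zfp148, a repressor and activator at GC-rich promoters, had 8 peaks over 9312 bases in AAV-NAT10 and 7 over 9059 bases in AAV-GFP. An 8158-base piece at its 3′ end (chr16:33495746-33503903) had the same borders in both lists, with a fold of 17.8 in AAV-NAT10 and 21.2 in AAV-GFP, and was at the ceiling in both. The whole difference of 253 bases was the piece at its annotated start, listed only in AAV-NAT10 with a fold of 3.84 at a score of 88.5. The C-first pattern shown above lies in that piece.

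Zfp410, an activator of the chromatin remodeller gene Chd4, had fewer peaks in AAV-NAT10 than in AAV-GFP, and its highest fold ranked higher within the AAV-NAT10 list. It had 7 peaks over 2771 bases in AAV-NAT10, with a median fold of 10.1 (5.17 to 13.8), and 9 over 3162 bases in AAV-GFP, with a median fold of 5.75 (3.01 to 7.66). Its highest fold stood at percentile 94.8 of all AAV-NAT10 peaks and at percentile 67.3 of all AAV-GFP peaks. Zfp335, a factor of neural progenitors, had 8 peaks over 1768 bases in AAV-NAT10 and 7 over 1508 bases in AAV-GFP. The 7 common Zfp335 pieces had the same borders, and the difference was a 260-base piece with a fold of 10.7 in AAV-NAT10.

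The other factors of that list differed by a few pieces. Zfp143, which acts at promoters of mRNA and small nuclear RNA genes, had 3 peaks over 1248 bases in AAV-NAT10 and 1 over 684 bases in AAV-GFP. Zfp217, a corepressor subunit, had 4 peaks over 5395 bases in AAV-NAT10 and 3 over 5260 bases in AAV-GFP, with the highest fold at 13.87 in AAV-NAT10 and 13.86 in AAV-GFP. Zfp281, a regulator of pluripotency genes, was covered by a single 5124-base piece in AAV-NAT10 (fold 7.88) and by pieces of 5035 and 28 bases in AAV-GFP (folds 9.31 and 4.85). Zfp703, a transcriptional corepressor, had 1 peak of 2831 bases in AAV-NAT10 and pieces of 940 and 932 bases in AAV-GFP.

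Of 7 KRAB zinc finger genes known from imprint or retroelement silencing, 6 had a peak in both lists and Zfp57 had none. Zfp568, which represses a placental Igf2 transcript, had 8 peaks over 7020 bases with the same borders in both lists. Its 6065-base piece (chr7:30022218-30028282) had a fold of 13.7 in AAV-NAT10 and 17.1 in AAV-GFP, at the ceiling in both. Zfp445, a guardian of imprints, had 2 peaks over 5248 bases in AAV-NAT10 and 1 of 5079 bases in AAV-GFP. The 5079-base piece was common, with a fold of 7.21 in AAV-NAT10 and 9.75 in AAV-GFP.

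Zfp809, which silences murine leukaemia virus in embryonic cells, was the shared gene without a common base. Its AAV-NAT10 peak was 1152 bases long (chr9:22238542-22239693, fold 4.97, score 718.3). Its AAV-GFP peak was 130 bases long (chr9:22225703-22225832, fold 6.06, score 109.4) and began at an annotated start. Zfp708, a binder of an endogenous retroviral repeat, had 2 peaks over 2161 bases in AAV-NAT10 and 1 of 2075 bases in AAV-GFP. Its long piece had a fold of 3.24 in AAV-NAT10, against 7.61 in AAV-GFP. Zfp932 and Zfp961, both tied to endogenous retroviruses, were covered over 2205 and 1884 bases in AAV-NAT10, and over 2455 and 1874 bases in AAV-GFP.

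The 5 Zfp genes listed for metabolism were split. Peaks of Zfp467 and Zfp516 were in both lists, those of Zfp90 and Zfp125 were in AAV-GFP alone, and Zfp69 had none. Zfp467, which favours fat over bone in marrow stromal cells, had 3 peaks over 3034 bases in AAV-NAT10 and 1 of 2842 bases in AAV-GFP. The 2842-base piece (chr6:48436613-48439454) was common, with a fold of 10.5 at the score ceiling in AAV-NAT10, and a fold of 4.49 with a score of 658.2 in AAV-GFP. Zfp516, a driver of brown fat genes, had 3 peaks over 7335 bases in AAV-NAT10 with folds from 8.82 to 11.8, and 3 over 7268 bases in AAV-GFP with folds from 5.76 to 8.10. Zfp90 had 1 AAV-GFP peak of 981 bases with a fold of 3.51 at a score of 68.1, near the low end of that list. Zfp125 had 1 AAV-GFP peak of 408 bases (chr12:20900460-20900867) with a fold of 6.37 at a score of 821.3, and its name has no RefSeq entry here.

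The KAP1 machinery, through which KRAB zinc finger proteins act, was set beside them. Of its 18 genes, 15 had a peak in both lists, Hdac2 (a histone deacetylase) had one only in AAV-NAT10, and Cbx3 and Uhrf1 had none, beside the same shares of 37.6% and 79.7% over all genes. Trim28, which encodes KAP1, had 1 peak in each list, of 341 bases with a fold of 7.63 in AAV-NAT10 and of 133 bases with a fold of 3.45 in AAV-GFP. Setdb1, the histone methyltransferase, was covered over 1989 bases in AAV-NAT10 and 1528 bases in AAV-GFP, and its partner Atf7ip over 4213 and 3191 bases. Chd3, a remodeller of the NuRD complex, was covered over 2156 bases in AAV-NAT10 and 749 bases in AAV-GFP. Chd4, its relative, had 1416 and 1699 covered bases. The median difference over the 15 shared genes was 62 bases, against 93 for all shared genes.

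The Zfp genes with the highest folds had a peak in both lists, as had 85.8% of all Zfp genes with a peak. Zfp609, a transcriptional regulator that works with the cohesin loader, had the highest Zfp fold in AAV-NAT10. Its 367-base piece (chr9:65700822-65701188) had a fold of 31.2 in AAV-NAT10, at percentile 99.96 of that list, and 17.9 in AAV-GFP, at percentile 99.3 there. All but 1 of its 7 pieces had the same borders in both lists. Zfp236 had the most Zfp peaks, 24 over 8478 bases in AAV-NAT10 and 25 over 8638 bases in AAV-GFP. The Zfp236 folds ran from 7.28 to 17.9 in AAV-NAT10, with a median of 13.6, and from 4.49 to 27.7 in AAV-GFP, with a median of 11.9. The AAV-GFP maximum was on a 366-base piece with the same borders in both lists and a fold of 16.5 in AAV-NAT10. Zfp142 was among the Zfp genes with the most peaks in AAV-NAT10, with 10 peaks over 6880 bases (folds up to 8.82) there and 7 over 5646 bases (up to 9.91) in AAV-GFP. Its 465-base piece at an annotated start was listed only in AAV-NAT10, with a fold of 4.61.

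**Figure D5:**
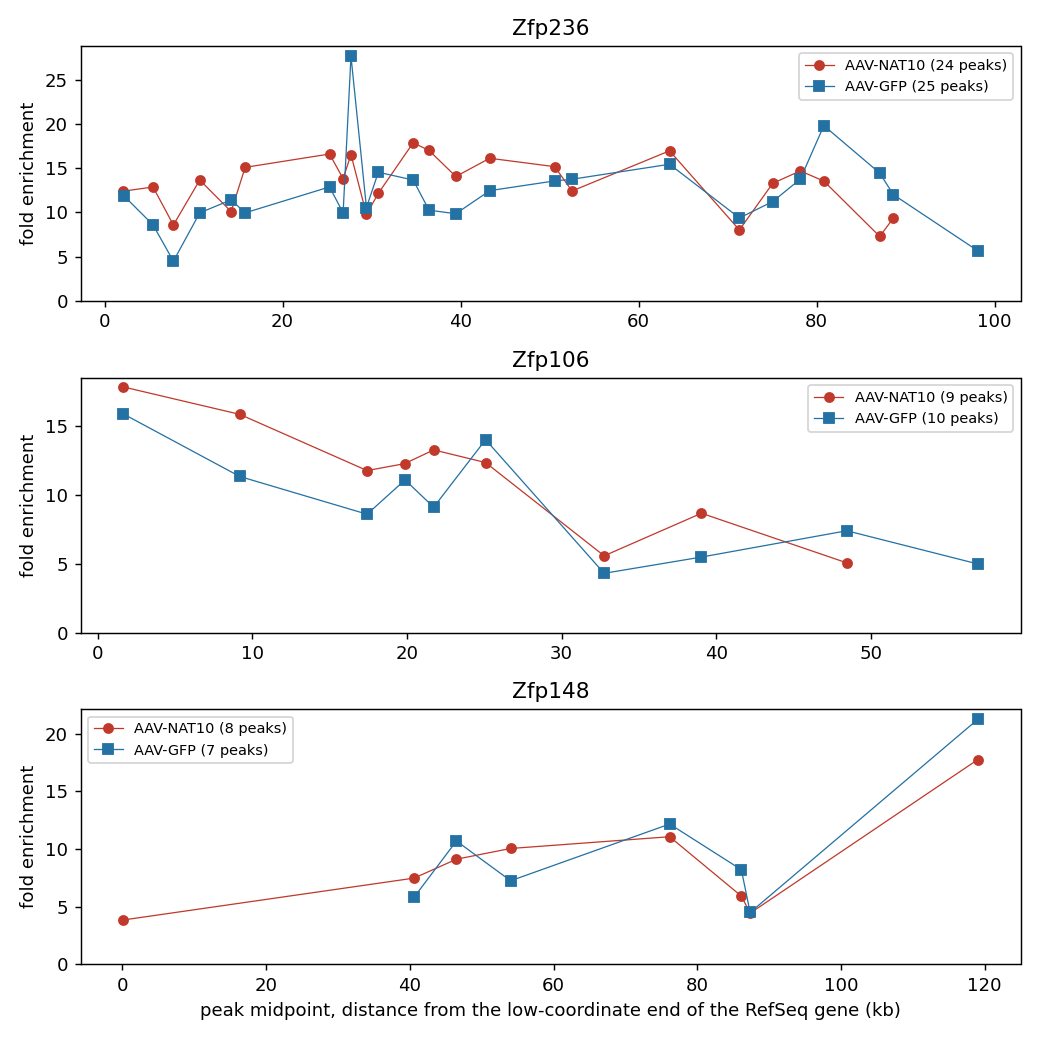
Fold enrichment (linear) of each peak of Zfp236, Zfp106 and Zfp148 against the distance of its midpoint from the low-coordinate end of the RefSeq gene (kb); red circles are AAV-NAT10 and blue squares are AAV-GFP, and lines only join the peaks of a list. The peaks of both lists stand at nearly the same places, with folds up to 17.9, 17.8 and 17.8 in AAV-NAT10 and 27.7, 15.9 and 21.2 in AAV-GFP.

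After Zfp609, Zfp236, Zfp106 and Zfp148, the highest folds in AAV-NAT10 were those of Zfp276 (15.9), Zfp652 (15.7), Zfp740 (15.2) and Zfp704 (14.7). Their highest folds in AAV-GFP were 14.2, 14.9, 8.98 and 13.0. In AAV-GFP the highest Zfp folds after those of Zfp236 and Zfp148 were in Zfp960 (19.4), Zfp280d (19.1), Zfp609 (17.9), Zfp568 (17.1), Zfp97 (16.6) and Zfp106 (15.9). Zfp960, Zfp280d and Zfp97 had highest folds of 7.62, 11.4 and 7.43 in AAV-NAT10. Zfp960 and Zfp97 were covered over the same 2515 and 2702 bases in both lists. Zfp260, at the score ceiling in both, had 1 peak of 3393 bases with a fold of 9.87 in AAV-NAT10 and 15.8 in AAV-GFP. Reads of Zfp genes with near-identical copies can be placed on either copy, so single values in clustered genes are uncertain. The paralogs Zfp729a and Zfp729b, chosen after their values were seen, were covered over 4849 and 4477 bases in either list, with highest folds of 5.61 and 3.87 in AAV-NAT10 and of 13.2 and 8.64 in AAV-GFP.

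By median highest fold, the 26 Zfp genes of AAV-NAT10 alone stood below the shared ones of that list, as did such genes in general. Of the 26, 20 had 1 peak (76.9%, against 67.8% of all genes of AAV-NAT10 alone), their covered length ran from 264 to 3988 bases, and their highest folds ran from 3.02 to 7.31 with a median of 4.49. The 223 shared genes, of which 102 (45.7%) had 1 peak in the same list, had a median highest fold of 6.93. The sets were not matched for number of peaks. Over all genes these medians were 4.82 for AAV-NAT10 alone and 8.39 for shared genes. The largest covered lengths were in Zfp608, a relative of Zfp609, with 3 peaks over 3988 bases (folds up to 6.83), and in Zfp446 with 2 peaks over 2883 bases (up to 4.53). Zfp763, Zfp788 and Zfp956 followed with 2776, 2258 and 1979 bases and folds up to 4.41, 4.05 and 3.89. Zfp937, Zfp385c and Zfp54 had 1 peak each, of 1883, 1684 and 1670 bases, with folds of 7.31, 6.18 and 3.65. The Zfp385c piece also lies over Nkiras2, and 1389 of its bases were under a peak of the AAV-GFP list with another gene name. The highest score among the 26, 2940.9, belonged to Zfp259, named for that reason, which RefSeq lists as Zpr1.

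The 11 Zfp genes of AAV-GFP alone also had a lower median highest fold than the shared ones of their list. Of the 11, 9 had 1 peak (81.8%, against 85.3% of all genes of AAV-GFP alone), and their highest folds ran from 2.93 to 6.44 with a median of 3.81, against 6.74 for the shared genes in the same list. Of the shared Zfp genes, 115 (51.6%) had 1 peak in AAV-GFP, so number of peaks was again not matched. Over all genes the median highest folds were 4.58 for AAV-GFP alone and 7.22 for shared genes. Zfp65 stood out by size, with 1 peak of 3624 bases (chr13:67705306-67708929), a fold of 5.92 and a score of 1066.0. Zfp942, Zfp943 and Zfp946 lie in 1 gene cluster of chromosome 17 and were covered over 2657, 2275 and 2266 bases, with scores up to 588.7, 480.0 and 67.3. Zfp386, Zfp277, Zfp456 and Zfp524 were covered over 1774, 1234, 1140 and 1052 bases. No score of 100 was reached by 6 of the 26 Zfp genes of AAV-NAT10 alone (466 of 1427 over all genes) and by 6 of the 11 of AAV-GFP alone (175 of 381).

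Among shared genes, the largest differences toward AAV-NAT10 lay in pieces without a counterpart and in longer pieces. Zfp81 was covered over 5448 bases in AAV-NAT10 and 2256 bases in AAV-GFP, and 2 AAV-NAT10 pieces of 2041 and 1512 bases had no counterpart. Zfp563 was covered over 5508 bases in AAV-NAT10 and 2762 bases in AAV-GFP. A 4856-base AAV-NAT10 piece spanned both AAV-GFP pieces of Zfp563. Zfp174 was covered over 4581 and 2200 bases, Zfp318 over 8793 and 6980 bases, Zfp39 over 3559 and 2175 bases, and Zfp770 over 4058 and 2695 bases, in AAV-NAT10 and AAV-GFP in this order. In Zfp318 the difference was mainly 2 unmatched pieces of 584 and 1178 bases, and the 5 other pieces were common.

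Toward AAV-GFP, the largest difference was in Zfp867, covered over 127 bases in AAV-NAT10 and 2409 bases in AAV-GFP. Its 2282-base AAV-GFP piece lies also over Jmjd4, and the lists give no strand, so the gene behind it cannot be told apart. Zfp654 was covered over 2895 bases in AAV-NAT10 and 4680 bases in AAV-GFP, with an unmatched AAV-GFP piece of 1815 bases. Zfp451, a SUMO ligase and the Zfp gene with the greatest covered length, was covered over 13311 bases by 11 peaks in AAV-NAT10 and over 14697 bases by 10 peaks in AAV-GFP. Zfp619, Zfp458 and Zfp706 were covered over 4015, 1769 and 2903 bases in AAV-NAT10, and over 5388, 3137 and 4149 bases in AAV-GFP. In all, 25 AAV-NAT10 and 26 AAV-GFP Zfp peaks lay over a protein-coding RefSeq gene of another name, in 22 and 20 Zfp genes. These counts include peaks listed as Zfp191 and Zfp607 over Zfp24 and Zfp607a, and in AAV-NAT10 that of Zfp259 over Zpr1. Such list names had no RefSeq entry, so there the other name can stand for the same gene. In each list 13 Zfp peaks reached outside the RefSeq gene of their name, 4 of them by over 100 bases. Peaks of Zfp433 and Zfp781, named for this reason, lay up to 159110 and 157781 bases outside. The 8815-base piece of Zfp652 reached 7638 bases outside in both lists. All of these count toward the gene that the lists name.

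Zfp genes in genomic clusters had a peak under their RefSeq name about as often as those that stand alone, but in longer pieces of lower fold. A cluster is here a run of at least 3 Zfp genes with gaps of at most 200 kb, a definition set after the data were seen. A peak was found in 130 of the 197 clustered RefSeq Zfp genes (66.0%, 58.9 to 72.6) and in 99 of the 152 that stood alone (65.1%, 57.0 to 72.7). The other 48 genes stood in pairs, and 27 of them had a peak (56.3%, 41.2 to 70.5). These shares rest on the match by name, so a gene that the lists hold under an older name counts as without a peak. The clustered genes had 1.72 peaks per gene in AAV-NAT10 and 1.64 in AAV-GFP, with a median piece of 1519 and 1534 bases. The lone genes had 3.10 and 3.01 peaks per gene, with a median piece of 432 and 460 bases. The median fold of clustered genes was 5.25 in AAV-NAT10 and 5.46 in AAV-GFP, at median percentiles 31.5 and 35.9 of the lists. For lone genes it was 6.83 and 6.56, at percentiles 54.2 and 53.6. By virus, 12 clustered genes (9.23%, 4.86 to 15.6) and 10 lone genes (10.1%, 4.95 to 17.8) had peaks in AAV-NAT10 alone, and 7 (5.38%, 2.19 to 10.8) and 3 (3.03%, 0.629 to 8.60) had them in AAV-GFP alone. Of the 27 paired genes with a peak, 3 had it in AAV-NAT10 alone and 0 in AAV-GFP alone, which with 27 genes allows a share of up to 12.8% (exact interval).

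Single clusters differed in how many of their genes had a peak. The largest, 23 genes at chr13:67038594-67827000, had a peak in 18, with 1 in AAV-NAT10 alone, 2 in AAV-GFP alone and the other 15 in both. A cluster of 12 genes at chr17:32765496-33394637 had a peak in 11, and a cluster of 15 genes at chr7:29768552-30169775 had a peak in 9, all in both lists. A cluster of 18 genes at chr17:21383707-22456689 had a peak in 11, with 1 only in AAV-NAT10 and the 3 named above only in AAV-GFP. A cluster of 12 genes at chr4:146449030-147849126 had a peak in Zfp933 alone. Its other genes, Zfp534 apart, have names between Zfp964 and Zfp996, the range in which no RefSeq gene matched a name of the lists. Peaks listed under older names are missed by this match, so its low count may reflect names, which was not tested. By chromosome, the share of Zfp genes with a peak was 25.9% on chromosome 4 (7 of 27) and 61.3% on chromosome 7 (57 of 93), which holds the most. The limit of the name match holds for these shares and for the other clusters too.

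Other zinc finger families, described for comparison and without a test, had long pieces too, the Zc3h genes apart. The 38 Zbtb genes with a peak, whose proteins pair fingers with a BTB domain, had a median piece of 701 bases in AAV-NAT10 and 1008 bases in AAV-GFP. The 8 Zscan genes, with fingers and a SCAN domain, had 854.5 bases in AAV-NAT10 and 913 bases in AAV-GFP, longer than the 810 and 886 bases of Zfp genes. The 7 Zkscan genes had 602 and 799.5 bases. The 12 Klf genes had 771.5 and 923.5 bases, and the 12 Zc3h genes, whose CCCH fingers bind RNA, had 196.5 and 201 bases. Exactly 1 peak was found in 52.8% of Zbtb genes in AAV-NAT10 and 51.4% in AAV-GFP, but in 16.7% and 9.09% of Zc3h genes. Of Zbtb peaks with a strand, 20.9% and 24.1% ended within 10 bases of the 3′ end, against 11.1% of Zscan peaks in either list. At the score ceiling were 20.7% and 15.4% of Zbtb peaks, but 5.56% of Zscan peaks in either list. Of the Zbtb genes, 3 had peaks in AAV-NAT10 alone (7.89%), 2 in AAV-GFP alone (5.26%) and 33 in both (86.8%). Among all genes with a peak these shares were 16.1%, 4.29% and 79.7%. Of the Zfp genes, 12 of 252 with an entry in the lists' molecular function column were annotated as poly(A) RNA binding (4.76%), against 9.0% of all annotated genes. Of those 12, Zfp385a had peaks in AAV-NAT10 alone and Zfp579, named as the single case, in AAV-GFP alone. The other 10 had them in both. Of all 752 genes with this term, 106 had peaks in AAV-NAT10 alone, 21 in AAV-GFP alone and 625 in both.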

How the data were processed

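The authors deposited a peak list for each virus, 2 in all, from RIP-seq of mouse liver (1 IP and 1 input library each). Peak names in the lists are in the style of MACS, per the file headers. The caller's version, aligner and read filters were not given in the sources used here, and per the submitters' processing notes positions are those of mm10. The deposited fold enrichment is a linear ratio per peak. The deposited score is -10 times the log10 of the peak's p-value, and the authors' FDR column was read as a percent. All of it came from the authors, and depth is unknown.

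Zfp peaks were taken by gene name with python 3.11.15 and pandas 2.3.3. Starts were shifted to count from 1. Overlap needed at least 1 shared base, and covered length is the sum of a gene's peak lengths. Intervals are exact (Clopper-Pearson, scipy 1.17.1, 95%). Overlap counting was tested on simulated data. Gene positions and sequences came from RefSeq (GRCm38.p6), where 256 of the 260 names matched, and a strand was known for 214 genes. The genes named are those of 5 role lists with a peak, the 8 with the highest fold in each list, up to 8 with the largest covered length in each list alone, the 6 with the largest difference toward each virus, the 5 with the most peaks, and up to 8 at the score ceiling by fold in each list; exceptions are marked. Members and lists were chosen with earlier results of these data known. Gene clusters, 3′ ends, the share of the longest piece, annotation terms and first-base letters were chosen after these lists were seen. Planned counts of fingers and KRAB boxes, exon positions and letters within peaks were not run. Alternatives were the upper 0.5 of each list by fold, equal numbers of top peaks, FDR of at most 5, pieces of at least 100 bases, at least 2 peaks per gene, and an overlap that reaches 0.5 of the peak, or 0.5 of each of the pair. A gene among the hepatocyte genes looked up is not reported here.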

Additional observations from a re-analysis of the deposited data

How the results depend on the processing

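All values rest on 1 IP and 1 input library per virus of unknown depth, so the smallest peak that could have been listed is unknown. No paired analysis was possible because each virus has 1 sample of each kind. The Zfp genes of AAV-NAT10 alone numbered 50 with the upper 0.5 of each list by fold, 13 with equal numbers of top peaks and 94 with FDR of at most 5. Over all genes these counts were 1367, 814 and 2254, against 1427 in the full lists. The Zfp genes of AAV-GFP alone numbered 45, 37 and, with at least 2 peaks per gene, 17. All genes of AAV-GFP alone numbered 534 with the upper 0.5 by fold and 622 with equal numbers, against 381 in the full lists. Zfp genes in both lists numbered 83 with the upper 0.5 by fold and 93 with at least 2 peaks. All genes in both lists numbered 3876 with the upper 0.5 by fold, against 7081 in the full lists. The FDR limit kept 550 AAV-NAT10 and 311 AAV-GFP Zfp peaks. The 194 AAV-GFP ones it removed, 41 at the score ceiling, all had scores of at least 602.5, and the kept ones reached 591.7. The overlapped share of AAV-NAT10 Zfp peaks was 62.6% with the upper 0.5 by fold, 88.6% with equal numbers and 45.8% with the FDR limit. Over all AAV-NAT10 peaks it was 62.6%, 73.9% and 52.0%. The overlapped share of AAV-GFP Zfp peaks was 68.3%, 78.6% and 82.0%, and 85.0% where both peaks had to be overlapped by 0.5. Over all AAV-GFP peaks it was 76.4% with the upper 0.5 by fold, 74.0% with equal numbers and 84.3% with the FDR limit. The median covered length difference was 0 with the upper 0.5 by fold, with equal numbers and with pieces of at least 100 bases, and 1014 bases with the FDR limit. Over all shared genes the median differences were 66.5, 0, 66 and 796 bases in the same order, against 93 in the full lists. Beyond the removals that each setting makes, the cause was not tested. The covered length difference of named genes (AAV-NAT10 minus AAV-GFP, in bases) changed sign as follows. With the upper 0.5 by fold it was 32 in Zfp106, -42 in Zfp148, -158 in Zfp207, 192 in Zfp236, -255 in Zfp280d, -1401 in Zfp318, -2175 in Zfp39, 1002 in Zfp410, 558 in Zfp451, 863 in Zfp609, 882 in Zfp654, -2075 in Zfp708 and -2695 in Zfp770. With equal numbers it was -124 in Zfp148, -158 in Zfp207, 135 in Zfp236, -228 in Zfp280d, -251 in Zfp318, 428 in Zfp410, 863 in Zfp609, 290 in Zfp619, -2075 in Zfp708 and -1874 in Zfp961. With the FDR limit it was 5610 in Zfp106, 6529 in Zfp236, 373 in Zfp410, 9705 in Zfp451, 6873 in Zfp609, 2352 in Zfp619, 2043 in Zfp654, 11633 in Zfp704, 2651 in Zfp706 and 1530 in Zfp932. With pieces of at least 100 bases it was -57 in Zfp280d and -10 in Zfp708. Of the named genes with a difference of 0, Zfp36, Zfp36l2, Zfp260, Zfp568, Zfp652, Zfp740, Zfp960 and Zfp97 moved to 2470, 3229, 3393, 6065, 10111, 3630, 2388 and 2420 with the FDR limit. Zfp36l1, Zfp568 and Zfp97 moved to 2789, 127 and -127 with the upper 0.5 by fold, and Zfp568 and Zfp97 to -146 and -127 with equal numbers.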
